A study of Mus musculus with 2 samples.

Results

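Oligodendrocytes, the cells that myelinate axons in the brain, are specified and matured by a small set of transcription factors, and 10 of their genes were followed here in the cerebrum of lag/lag mice. The genes, taken from early specification to late myelination, were Olig2, Olig1, Nkx2-2, Sox8, Sox10, Tcf7l2, Zfp488, St18, Myrf and Nkx6-2. A probe set counted for a gene only where the annotation of the array paired it with that gene alone. By this rule 9 of the 10 genes had a probe set, 15 probe sets in all, among 18194 genes on the array. No probe set was paired with Zfp488 alone, so the expression of Zfp488 was not analysed here.

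The lag (laggard) allele is a spontaneous, recessive splice acceptor mutation of Kif14, which encodes a kinesin motor that acts in cytokinesis, and it arose on a mixed 129/SVJ, C57BL/6N and DBA/2N background before crosses to C57BL/6J. RNA from the cerebrum of a lag mutant and of a wild-type mouse, both at postnatal day 14, was hybridised to 1 Affymetrix mouse expression array per genotype. Neither the number or sex of the animals behind each RNA nor their litter is stated in the sources used here. With 1 array per genotype the differences below have no replicate check, and none of them carries an error or a test.

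Each value is a MAS5 signal, a linear brightness in arbitrary units that combines the probes of a probe set. Signals of different genes were not compared, except to rank or group genes by brightness and to sum the signals of a gene list. A background level was set on each array at the 95th percentile of 153 probe sets of olfactory, taste and vomeronasal receptor, keratin-associated protein and defensin genes, which came to 50.9 in the mutant and 56.5 in the wild-type. A gene was called measured where its probe set lay above background on at least 1 array, and 13693 genes were. Where 1 of the 2 signals lay under background, the background level was used in its place, and the fold is a lower bound. Summed signals of gene lists used the values as deposited, without that replacement, and follow mostly the brightest genes of each list. The median signal of all probe sets was 98.3 in the mutant and 105 in the wild-type. As a measure of RNA quality, the 3' over 5' signal of Actb was 1.38 in the mutant and 1.55 in the wild-type, and that of Gapdh 0.772 in the mutant and 0.819 in the wild-type. The single Kif14 probe set read 0.733 in the mutant and 6.85 in the wild-type, under background on both arrays, and so did not check the genotype labels.

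Olig2 acts first in the lineage, setting aside precursors from neural progenitors, and Olig1, Sox8 and Sox10 are carried by the cells from the precursor stage onwards. Nkx2-2 takes part in the patterning of the early neural tube and later in the onset of differentiation. Tcf7l2, St18 and Zfp488 accompany the exit from the precursor state, and Myrf and Nkx6-2 belong to cells that build myelin. The factors act in sequence and on each other: Olig2 acts on the Sox10 gene, Sox10 switches on Myrf, and Sox10 and Myrf together bind and activate the genes of the myelin sheath.

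Among the 8 measured members, 4 had a signal at least 2-fold lower in the mutant, namely Nkx2-2, Sox8, Sox10 and Myrf, and none was at least 2-fold higher. The share of all measured genes past the same fold was 0.986% in the lower and 0.606% in the higher direction. Myrf counted as measured through the wild-type array alone and passed as a bound. Sox10 passed by 1 of its 2 measured probe sets. Nkx2-2 did not pass when background was taken at the 99th percentile. At a fold of 1.5 the lower members were 6, with Olig2 and Olig1 added, against 3.51% of all genes, and at a fold of 4 they were 3, Sox8, Sox10 and Myrf, against 0.212% of all genes. Counting differences of any size, 7 of the 8 were lower, against 47.7% of all genes, and the exception was Tcf7l2. By probe set, 4 of the 13 measured were at least 2-fold lower, against 1.35% of all measured probe sets. The median log2 ratio of mutant over wild-type signal was -1.19 over the 8 members and 0.01 over all measured genes. The members were not chosen without knowledge of these arrays, since Sox10, Olig1 and Olig2 belong to the genes that the study itself picked as lower on them. Without those 3 members the median was -1.48, the value of Nkx2-2. The other members were also chosen with earlier results of these data known, so this is no independent check. In RNA from whole tissue, fewer cells of the lineage and less RNA per cell cannot be told apart.

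**Figure D1:**
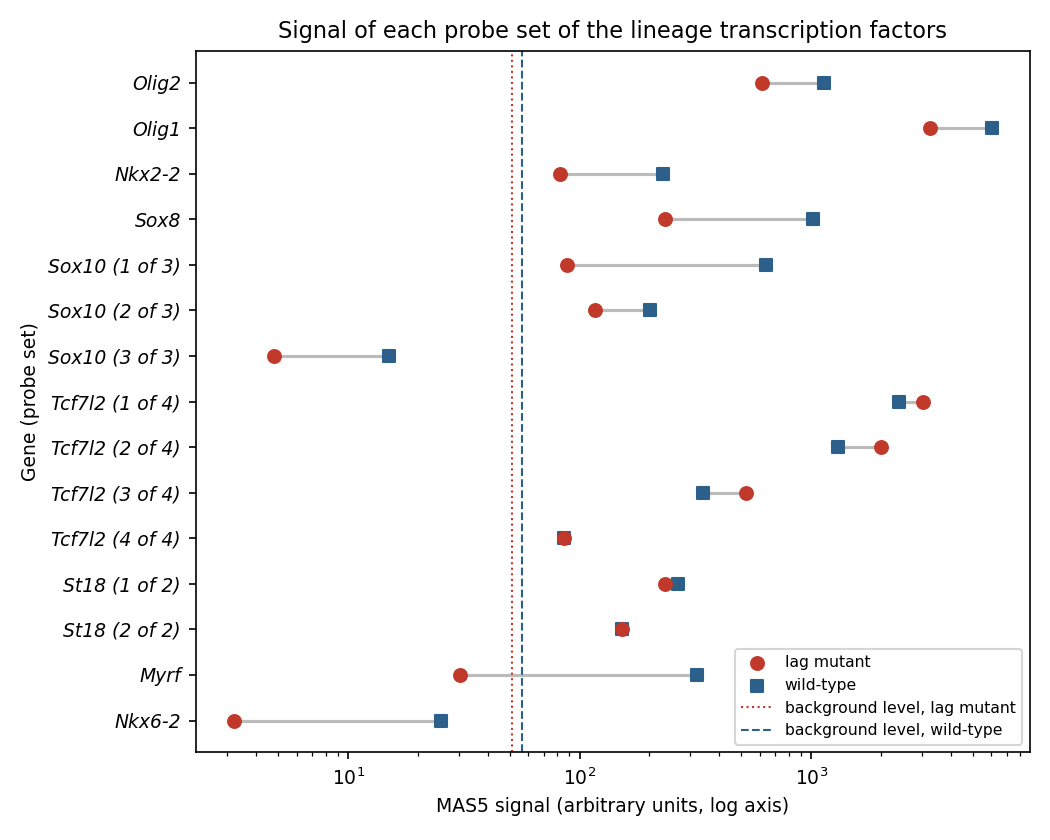
MAS5 signal on a log axis (arbitrary units) for each of the 15 probe sets of the members, with lag mutant values as red circles, wild-type values as blue squares and vertical lines at the background level of each array. Every probe set of Olig2, Olig1, Nkx2-2, Sox8, Sox10, Myrf and Nkx6-2 lies further left in the mutant, whereas 3 of the 4 Tcf7l2 probe sets lie further right.

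The sequence around the annotated start of transcription is shown for Olig2, at the head of the lineage, whose decrease fell short of 2-fold. It is also shown for a pair that was at least 2-fold lower (Nkx2-2 and Sox8) and for the member that was not lower (Tcf7l2). These genes were picked by their signals, and a link between motifs and signals was not tested. The windows come from RefSeq on GRCm38.p6, hold 300 bases, from 250 before to 50 after the start, and run 5′ to 3′ along the strand of the gene. RefSeq windows were at hand for 6 of the 10 genes, and not for Olig1, Sox10, Myrf or St18. Capitals mark matches on either strand to the E-box CANNTG, which bHLH factors such as Olig2 bind, to the SOX cores ACAAAG and ACAATG, and to the TCF/LEF core TCAAAG.
Olig2, chr16:91225300-91225599, plus strand: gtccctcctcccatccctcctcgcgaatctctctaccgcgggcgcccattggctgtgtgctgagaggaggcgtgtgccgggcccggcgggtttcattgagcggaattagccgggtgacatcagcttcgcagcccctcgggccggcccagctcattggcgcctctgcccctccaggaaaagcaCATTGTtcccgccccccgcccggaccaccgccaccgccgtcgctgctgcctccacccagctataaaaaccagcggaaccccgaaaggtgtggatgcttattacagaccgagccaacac
Nkx2-2, chr2:147186353-147186652, minus strand: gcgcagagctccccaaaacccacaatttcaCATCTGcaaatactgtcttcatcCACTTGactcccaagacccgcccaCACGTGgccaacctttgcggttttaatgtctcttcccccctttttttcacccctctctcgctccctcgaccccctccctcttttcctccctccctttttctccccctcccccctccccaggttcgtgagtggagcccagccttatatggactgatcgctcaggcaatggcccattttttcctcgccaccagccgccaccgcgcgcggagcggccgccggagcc
Sox8, chr17:25570637-25570936, minus strand: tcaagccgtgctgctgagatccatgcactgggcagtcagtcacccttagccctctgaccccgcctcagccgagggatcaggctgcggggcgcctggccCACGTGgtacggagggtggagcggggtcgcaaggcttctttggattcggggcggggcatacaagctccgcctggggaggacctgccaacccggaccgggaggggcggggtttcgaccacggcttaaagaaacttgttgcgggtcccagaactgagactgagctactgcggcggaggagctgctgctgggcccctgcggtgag
Tcf7l2, chr19:55741560-55741859, plus strand: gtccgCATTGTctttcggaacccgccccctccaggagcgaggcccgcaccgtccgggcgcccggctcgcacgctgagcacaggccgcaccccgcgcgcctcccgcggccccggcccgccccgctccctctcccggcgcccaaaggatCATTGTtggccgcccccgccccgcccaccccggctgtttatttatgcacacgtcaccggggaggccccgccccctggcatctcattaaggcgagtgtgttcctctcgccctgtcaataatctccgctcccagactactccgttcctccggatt

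The Nkx2-2 window held 3 E-boxes, which began 220, 197 and 173 bases before the start, and the first of them read CAGATG on the opposite strand. The second overlapped the only match to the NKX2 motif CACTTNA in that window. The Sox8 window held 1 E-box, 152 bases before the start. The Olig2 window held no E-box and 1 match to ACAATG, 68 bases before the start. The Tcf7l2 window shown held 2 matches to ACAATG, 245 and 103 bases before the start, and no E-box. A second annotated start of Tcf7l2, at chr19:55895071-55895370 on the plus strand, had 1 match to ACAAAG in its window, 14 bases before the start.

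These matches describe letters and not bound sites, and the motifs are common. Among 32851 windows of the same length, 72.3% held an E-box, 17.2% held CAGATG, 12.6% held ACAATG, 18.7% held ACAAAG, 16.0% held TCAAAG and 11.5% held CACTTNA. Of the 7 windows of members, counting both of Tcf7l2, 4 held an E-box, those of Nkx2-2, Sox8, Nkx6-2 and Zfp488. The E-box CAGCTG stood in 16.3% of windows and, of the members, only in that of Zfp488. Of the MYRF motifs, CTGGCAC stood in 5.01% of windows and in none of the members', while CTGGTAC stood in 2.24% of windows and in that of Zfp488. The window of Nkx6-2 had 1 E-box and none of the SOX, TCF/LEF, MYRF or NKX2 letters.

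Olig2, the bHLH factor without which the brain makes almost no oligodendrocytes, had a signal of 611 in the mutant and 1134 in the wild-type. The mutant signal was 53.9% of the wild-type signal, 1.86-fold lower, a log2 ratio of -0.89. Olig1, its close relative and neighbour on chromosome 16, which is needed for maturation and for the repair of myelin, had a signal of 3267 in the mutant and 6031 in the wild-type. That was 54.2% of the wild-type signal, 1.85-fold lower, a log2 ratio of -0.88. The pair thus shared nearly the same ratio, although each gene was read by a probe set of its own. Both lay short of 2-fold, yet few genes had lower ratios: counted from the lowest, Olig2 ranked 180 and Olig1 ranked 185 of the 13693 measured genes, with genes known only by a bound placed at that bound.

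The genes around the Olig pair were read in the same way. No measured gene lay between Olig2 and Olig1 in the gene order of GRCm38.p6, and the 3 nearest measured genes on each side had log2 ratios between -0.24 and 1.15, with a median of 0.03. Paxbp1, the nearest beyond Olig2, had a signal of 897 in the mutant and 918 in the wild-type. Ifnar2, the nearest beyond Olig1, had a signal of 412 in the mutant and 339 in the wild-type. None of the 6 neighbours therefore had a decrease of the size of either Olig gene. The farthest of the 3 on the side of Olig2, Cfap298, was higher in the mutant, at 762 against 344 in the wild-type.

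Nkx2-2, the homeodomain factor that, after its early role in patterning, helps to set the time at which precursors differentiate, had a signal of 82.4 in the mutant and 230 in the wild-type, 2.79-fold lower (log2 ratio -1.48, rank 53 from the lowest). Its signal was low on both arrays. When all measured genes were split by mean signal into 4 groups of equal size, Nkx2-2 fell into the dimmest, of which 1.87% were at least 2-fold lower. When background was taken at the 99th percentile of the same probe sets, the decrease of Nkx2-2 became a bound of at least 1.73-fold and no longer passed 2-fold.

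The SoxE genes Sox8 and Sox10 encode closely related HMG-box factors that share target sites and partly replace each other in oligodendrocytes. Sox8 had a signal of 234 in the mutant and 1019 in the wild-type, 4.36-fold lower, a log2 ratio of -2.13. Its single probe set was far above background on both arrays, and the mutant kept 22.9% of the wild-type signal. Of the genes in its brightness group, the third, 0.526% were at least 2-fold lower.

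Sox10, the factor that drives the myelin genes directly, was represented by 3 probe sets. The brightest read 88.2 in the mutant and 637 in the wild-type, 7.22-fold lower (log2 ratio -2.85, rank 12 from the lowest). The second read 117 in the mutant and 201 in the wild-type, 1.72-fold lower (log2 ratio -0.78). The third read 4.76 in the mutant and 15.1 in the wild-type, under background on both arrays, and gave no fold. Both measured probe sets were therefore lower in the mutant, but only 1 of them by at least 2-fold. Their log2 ratios differed by 2.07, a wider range than that of 99.7% of the 6456 genes with at least 2 measured probe sets, for which the median range was 0.33. The mean of both was a 3.53-fold decrease. In the brightness group of Sox10, the second, 1.31% of genes were at least 2-fold lower. What part of the transcripts each probe set reads was not analysed here.

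**Figure D2:**
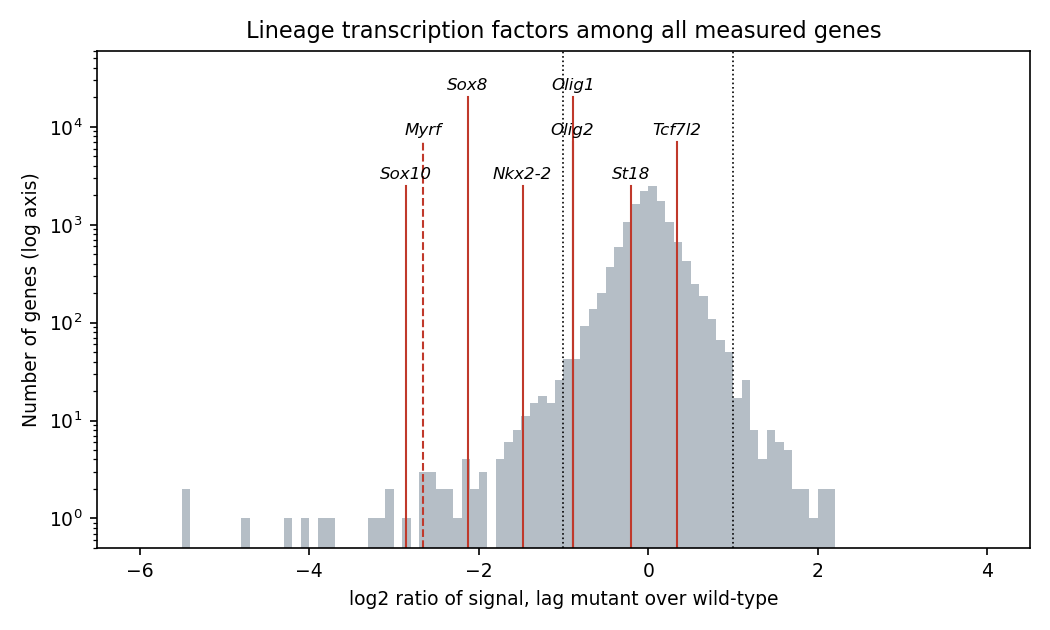
Number of measured genes (log axis) by log2 ratio of lag mutant over wild-type signal in bins of 0.1, with the 8 measured members as red lines, the bound of Myrf dashed, and dotted lines at 2-fold. Sox10, Myrf, Sox8 and Nkx2-2 lie beyond the dotted line on the left, Olig2 and Olig1 just short of it, and St18 and Tcf7l2 within the bulk of the genes.

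The later factors did not share 1 direction. Tcf7l2, an HMG-box effector of Wnt signalling that promotes differentiation of precursors, had 4 measured probe sets. The brightest read 3029 in the mutant and 2395 in the wild-type, 1.26-fold higher (log2 ratio 0.34). The next read 1995 in the mutant and 1306 in the wild-type, and the third read 524 in the mutant and 343 in the wild-type, each 1.53-fold higher. The dimmest read 85.6 in the mutant and 85.7 in the wild-type. None of the 4 passed 2-fold in either direction, and the middle pair passed 1.5-fold, as did 3.83% of all measured genes by their brightest probe set. In the brightness group of Tcf7l2 and Olig1, the brightest, 0.234% of genes were at least 2-fold lower.

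Tcf7l2 is also a gene of thalamic neurons, and the thalamus may be part of a dissected cerebrum. The summed signal of the 8 thalamic neuron markers was 11641 in the mutant and 11138 in the wild-type, or 104.5% of the wild-type. Of these markers only Gbx2, a homeobox gene of the thalamus, passed 2-fold, with 200 in the mutant and 75.7 in the wild-type, 2.64-fold higher. The part of thalamic neurons in the Tcf7l2 signal was not tested.

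St18, a zinc finger protein of the Myt1 family, had 2 measured probe sets with nearly the same signal on both arrays. The brighter read 233 in the mutant and 267 in the wild-type, 1.15-fold lower (log2 ratio -0.20). The dimmer read 152.8 in the mutant and 152.7 in the wild-type. Of the measured genes, 19.5% had a ratio as low as that of the brighter probe set or lower.

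Myrf, a membrane-anchored factor that cuts itself free and enters the nucleus to maintain the myelin program, had a signal of 30.5 in the mutant, under background, and 321 in the wild-type. It was lower by at least 6.30-fold, a log2 ratio of at most -2.66, and being a bound it is given no rank. The mutant signal of Myrf could thus not be told from background, while the wild-type signal was well above it. The bound shrank to at least 2.41-fold when background was taken at the 99th percentile. Nkx6-2, a homeodomain factor of myelinating oligodendrocytes, had a signal of 3.20 in the mutant and 25.1 in the wild-type, under background on both arrays. No fold is given for it.

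Sorted by stage, the 5 specification and lineage factors were all measured and all lower in the mutant, against 47.7% of all measured genes. The median of their log2 ratios was -1.48, and 3 of them passed 2-fold, against 0.986% of all measured genes. Of the 5 differentiation and myelination factors 3 were measured, Tcf7l2, St18 and Myrf. Myrf alone passed 2-fold, as a bound, and the median log2 ratio of the list was -0.20. Both stage lists were drawn up with earlier results of these data known, and a difference between them was not tested. Among the members without a bound, the brightest probe sets ran in log2 ratio from Sox10 at the low end through Sox8, Nkx2-2, Olig2, Olig1 and St18 to Tcf7l2. The place of Sox10 rested on its brightest probe set, since the mean of both its measured probe sets, a log2 ratio of -1.82, lay above that of Sox8, and its second, at -0.78, above that of Olig1. Myrf, as a bound, has no fixed place, and without replicate arrays no step of this order has an error.

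The Sox family as a whole was read next, a group chosen after the values of the members had been seen. Of 16 measured Sox genes, Sox10 and Sox8 alone passed 2-fold. The 14 others had log2 ratios between -0.74 and 0.75. Sox9, the third SoxE gene, which is abundant in astrocytes and progenitors, had a signal of 336 in the mutant and 304 in the wild-type. Sox2, a factor of neural progenitors, had a signal of 2748 in the mutant and 2880 in the wild-type. At the ends of the range were Sox6, which restrains precursor differentiation, with 531 in the mutant and 890 in the wild-type, and Sox13, with 218 in the mutant and 130 in the wild-type.

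**Figure D3:**
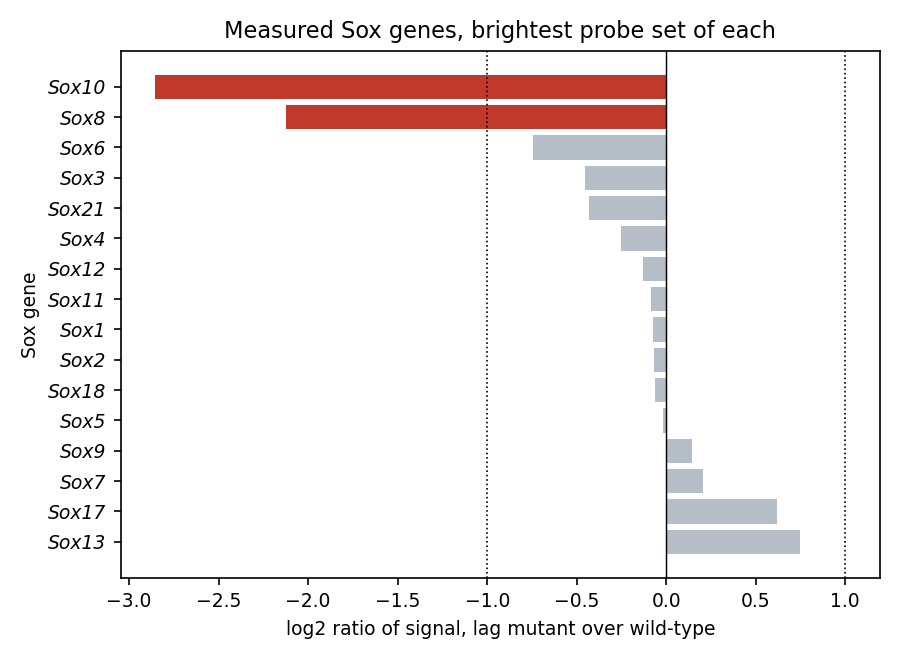
Log2 ratio of lag mutant over wild-type signal for the 16 measured Sox genes, by the brightest probe set of each, with Sox10 and Sox8 in red, all others in grey, and dotted lines at 2-fold. Only Sox10 and Sox8 reach past a dotted line, at -2.85 and -2.13.

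Of 15 further genes from the families of the members, 9 were measured and none passed 2-fold by its brightest probe set. Their median log2 ratio was 0.02. Sox6 had the largest decrease among these relatives, 1.68-fold. Prdm8, a zinc finger gene of neurons, had the largest increase, 1105 in the mutant and 704 in the wild-type. Myt1l, a neuronal relative of St18, had a signal of 6030 in the mutant and 4677 in the wild-type. Lef1, a TCF/LEF relative of Tcf7l2, had a signal of 352 in the mutant and 475 in the wild-type.

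The list of partners and other regulators of the lineage held 30 genes, among them chromatin remodellers, histone deacetylases, E proteins, nuclear factor I genes and Id and Hes inhibitors. By the brightest probe set, 1 of the 29 measured was lower by at least 2-fold, none was higher by as much, and the median log2 ratio was -0.07. The gene past 2-fold was Chd7, a chromatin remodeller that works with Sox10 in oligodendrocytes, with 83.8 in the mutant and 218 in the wild-type, 2.60-fold lower. Its other probe set read 93.6 in the mutant and 153 in the wild-type, 1.63-fold lower. For Tcf12, 1 of 5 measured probe sets was at least 2-fold lower, but not the brightest. Sox17 had the largest increase of the list, with 346 in the mutant and 225 in the wild-type. Ctnnb1, which encodes beta-catenin, read 13397 in the mutant and 14501 in the wild-type. Klf9, a thyroid hormone responsive gene, read 10655 in the mutant and 11862 in the wild-type.

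The myelin genes that these factors switch on were lower in the mutant by the brightest probe set of each. All 12 measured of 16 listed passed 2-fold, 4 of them as bounds, against 0.986% of all measured genes. The study itself picked each of these 12 as lower on these same arrays, so the count is not an independent result. The median log2 ratio was -2.53, and the summed signal was 2807 in the mutant and 35968 in the wild-type, or 7.80%. Mbp, the gene of myelin basic protein, read 444 in the mutant and 18812 in the wild-type. Of its 8 measured probe sets 6 passed 2-fold, and the rest were not lower, with 907 and 152 in the mutant against 820 and 140 in the wild-type. Mobp, the gene of another basic protein of the sheath, was under background in the mutant at 26.5 and read 2224 in the wild-type. Cnp, an enzyme of the myelinating cell, read 1434 in the mutant and 7730 in the wild-type, and the smallest decrease was that of Aspa, with 133 in the mutant and 284 in the wild-type.

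Markers of oligodendrocyte precursors, the cells in which the early members are made, lay between. All 10 measured were lower in the mutant, against 47.7% of all measured genes, and 4 were at least 2-fold lower, against 0.986%. Of those 4, C1ql1 was a bound, and Cspg4 passed by 1 of its 2 measured probe sets. The median log2 ratio of the list was -0.71. Its summed signal was 11254 in the mutant and 17663 in the wild-type, or 63.7%. Pdgfra, the growth factor receptor of precursors, read 1481 in the mutant and 2508 in the wild-type, a log2 ratio of -0.76, beside -0.89 for Olig2 and -0.88 for Olig1. By real-time PCR of whole brain at earlier ages, the study saw no noticeable change of Olig2 or Pdgfra mRNA in lag/lag mice. It also found no significant difference in cells stained for Olig2 or PDGFRα in the embryonic neocortex. Age, method and, for the PCR, tissue differ from those of the arrays. Ptprz1, a receptor phosphatase also made by astrocytes, read 5576 in the mutant and 6627 in the wild-type. Gpr17, a receptor of cells that have just left the precursor state, read 123 in the mutant and 2259 in the wild-type. The study picked Gpr17 too as lower on these arrays. The precursor and myelin lists mark the lineage of the members themselves, and the part of cell number in the members' values was not tested.

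**Figure D4:**
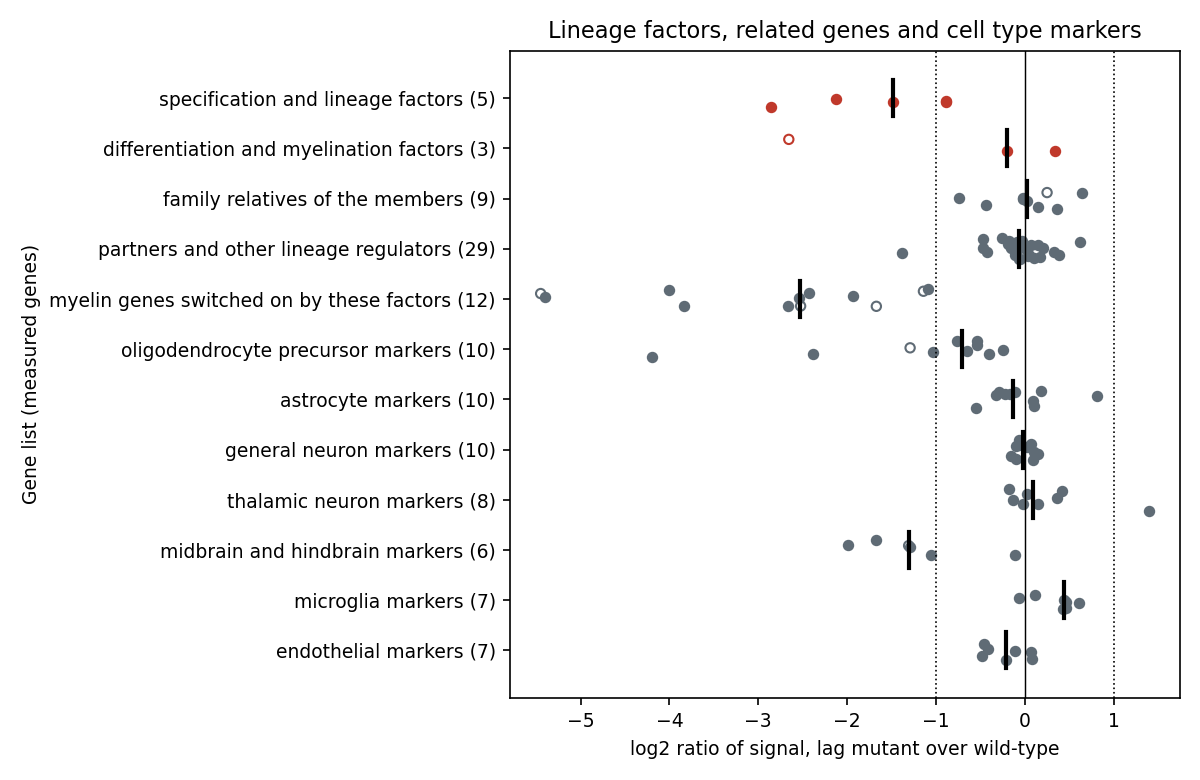
Log2 ratio of lag mutant over wild-type signal for each measured gene of the 12 lists, with the members in red, other genes in grey, bounds as open circles, list medians as black bars and dotted lines at 2-fold. All 12 measured myelin genes, each picked by the study as lower on these same arrays, lie beyond 2-fold on the left. The 5 specification factors all lie left of 0, and relatives and partners of the members centre near 0.

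Markers of other cells and regions were read beside the members. None of 10 astrocyte, 10 general neuron, 7 microglia and 7 endothelial markers passed 2-fold in either direction by its brightest probe set. For the astrocyte marker Slc1a3, 1 of 6 measured probe sets was at least 2-fold lower. The summed signal of the astrocyte markers was 41890 in the mutant and 46164 in the wild-type (90.7%), and that of the neuron markers was 108239 in the mutant and 108003 in the wild-type (100.2%). Microglia markers summed to 9720 in the mutant and 8134 in the wild-type (119.5%), and endothelial markers to 3676 in the mutant and 4218 in the wild-type (87.1%). By gene, 6 of the 7 microglia markers were higher in the mutant, with a median log2 ratio of 0.44. Of the 7 endothelial markers 5 were lower, with a median of -0.22.

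The measured genes of midbrain and hindbrain neurons were lower in the mutant as well. Of 6 measured, 5 passed 2-fold downwards, against 0.986% of all measured genes. Among these 5, En2 was a bound, under background in the mutant at 21.6, with 126 in the wild-type. Tph2 read 54.4 in the mutant, close to background, and 133 in the wild-type. The median log2 ratio of the 6 was -1.30, with a summed signal of 645 in the mutant and 1450 in the wild-type (44.5%). A further 4, En1, Hoxb2, Hoxb3 and Foxa2, were under background on both arrays. The largest decrease was that of Slc6a3, the dopamine transporter, with 102 in the mutant and 402 in the wild-type, and the smallest that of Otx2, a homeobox gene of the midbrain and choroid plexus, with 263 in the mutant and 283 in the wild-type. Oligodendrocytes lie in these regions as well, and the part of how much midbrain and hindbrain each sample held in the members' values was not tested.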

How the data were processed

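Cerebral RNA of a lag mutant and of a wild-type mouse was read on Affymetrix GeneChip mouse arrays, 1 per genotype. The authors computed MAS5 signals with default settings and global scaling; the submitters' processing notes name MAS5 too. The deposited values are intensities on a linear scale, with no detection calls, and the target of the scaling is not stated in the sources used here. Of 45101 probe sets, GEO's platform annotation gave 1 gene to 34958, several to 932 and none to 9211, and symbols of 34754 were updated through Entrez identifiers. Each gene was read by its brightest probe set on average, and log2 of mutant over wild-type signal was computed after raising signals under background to it. Genes past 2-fold were counted. The number of arrays limits the precision.

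The members and gene lists were chosen with earlier results of these data known. Text names were to be all members, the largest decrease, largest increase and 2 brightest genes of each other list, and every relative or partner past 2-fold. Lef1, Sox9, Sox2, Sox13, Tcf12, Tcf7l1, Slc1a3, C1ql1, Cspg4, En2 and Tph2 were added after their values were seen. So were the Olig neighbours, the Nkx genes that are not members, and the midbrain and hindbrain genes under background on both arrays. For the thalamic, astrocyte, neuron, microglia and endothelial lists the planned names were not all given. Alternatives were the background level at the 90th or 99th percentile or none, the mean, largest or smallest decrease over probe sets, unique probe sets only, quantile normalization, scaling to the median, and folds of 1.5 and 4. Motifs were sought by exact letters in RefSeq promoter windows. Protein sequences were not analysed here. Python 3.11.15, numpy 2.4.6, pandas 2.3.3 and matplotlib 3.10.9 were used.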

Additional observations from a re-analysis of the deposited data

How the results depend on the processing

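Across the alternatives, 3 to 6 members passed the fold asked for, and the median log2 ratio of the members stayed between -1.48 and -0.89. When background was set at the 99th percentile Nkx2-2 dropped out, leaving 3, and with no background level the count was 5 through Nkx6-2, of which nothing can be read, since both its signals lie under background. Sox10 dropped out by its probe set with the smallest decrease, 1.72-fold. It also dropped out with unique probe sets only, a setting that left out names ending in a_at, s_at or x_at. Every Sox10 probe set has a name ending in a_at. In each case 3 members passed. At the 99th percentile Sox10 was lower by at least 4.78-fold. A fold of 1.5 added Olig1 and Olig2, for 6 members, and at a fold of 4 the 3 were Sox8, Sox10 and Myrf. Of 71 values of single members under other settings, 65 moved by less than 1.5-fold and 6 by more, those of Nkx2-2, Sox10 and Myrf. The log2 ratio lay between -0.90 and -0.80 for Olig1, between -0.89 and -0.80 for Olig2 and between -2.13 and -2.04 for Sox8. For Tcf7l2 it reached 0.61 and for St18 -0.20, and each crossed 0 slightly through the probe set equal on both arrays, so that neither has the same sign under every setting. Scaling to the median moved the median of all genes to 0.09. The share of all genes at least 2-fold lower was 5.39% with no background level, 2.11% by the largest decrease and 0.658% at the 99th percentile, against 0.986% as reported. No paired analysis was possible because the design holds 1 array per genotype. The planned comparison of protein sequences was not run.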

Other observations

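Of 12 Nkx genes with a probe set, 4 were measured, a group looked at after the members. Nkx2-3 read 69.1 in the mutant and 138 in the wild-type, just short of 2-fold. Nkx2-6 read 129 in the mutant and 44.7 in the wild-type, under background there, and its bound passed 2-fold upwards. Nkx2-1, a factor of the ventral forebrain, read 67.2 in the mutant and 16.0 in the wild-type, also under background, higher by at least 1.19-fold. Tcf7l1, a relative of Tcf7l2, had probe sets that disagreed: the brighter read 205 in the mutant and 208 in the wild-type, and the other read 49.8 in the mutant, under background, and 247 in the wild-type, at least 4.84-fold lower.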
